A study of Homo sapiens with 9 samples.

Results

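Transcripts of 7 genes that write, maintain or remove DNA methylation were measured in Hep3B cells, a human liver cancer line. The genes were chosen by name from the 60683 genes of the deposited count table, in a list put together with earlier results of these data known. They are the maintenance methyltransferase gene DNMT1 and its cofactor UHRF1, the de novo methyltransferase genes DNMT3A and DNMT3B, and the methylcytosine dioxygenase genes TET1, TET2 and TET3. Each matched exactly 1 gene of the table, and all 7 passed the filter on low counts together with 22672 genes in all.

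DNA methylation marks cytosines that precede a guanine. DNMT3A and DNMT3B place the mark on unmethylated DNA, whereas UHRF1 recognizes half-methylated DNA behind the replication fork and brings DNMT1 to copy the mark onto the new strand. The TET enzymes oxidize methylcytosine, which starts its removal, and they use oxygen, iron and 2-oxoglutarate, as the hydroxylases that control hypoxia-inducible factor (HIF) do. HIF is the transcription factor that cells stabilize when oxygen is low. The methyltransferases use S-adenosylmethionine as methyl donor.

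The cells were exposed for 24 hours to vehicle (DMSO) at 20% O2, to vehicle at 1% O2, or to 32-134D at 1% O2, with 3 replicates in each group. 32-134D is a compound that the study developed as an inhibitor of HIF. It was used at 1 concentration, which the labels do not state, and no library with 32-134D at 20% O2 is analysed here. All libraries come from 1 cell line grown on plates, and they carry RNA only, so methylation itself and the enzymes' activity were not measured.

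Levels are given as CPM, the count of a gene relative to the total count of its library, with totals scaled by the TMM method. Log2 fold changes come from edgeR's quasi-likelihood test, with a false discovery rate (FDR) over all 22672 genes. A gene is said to have risen or fallen where the FDR was below 0.05 and the fold change above 1.5. Total counts ran from 6013980 to 40549699 per library, and the smallest count of any of the 7 genes in a library was 128, for TET1. Levels of cell type markers, unlike all others, are CPM without TMM scaling. All 10 hepatocyte and hepatoma markers were detected in every group, with summed levels of 12300 to 21000 CPM. Endothelial markers summed to at most 1.33 CPM with VWF at 0, and leukocyte markers to at most 4.66 CPM with CD3E at 0. Fibroblast markers summed to 10.3 to 11 CPM in vehicle at 20% O2, 6.27 to 7.87 CPM in vehicle at 1% O2 and 12.7 to 24.7 CPM with 32-134D. As a check of the labels, 10 of 10 HIF target genes rose at 1% O2 and 10 of 10 fell with 32-134D, as in CA9 with log2 fold changes of 4.38 and -3.36. Both libraries that stood apart for the 7 genes are named here. Replicate 1 of vehicle at 20% O2 lay below both other replicates for 7 of 7 genes. It did so for 39.6% of genes with a mean of at least 1 CPM. Replicate 3 of 32-134D was low for DNMT3B, by 0.83 on the log2 scale. This replicate also stood apart over all genes. It lay below both others for 45.6% of genes with a mean of at least 1 CPM, and SDs of the 32-134D group include it.

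Windows of 250 bases before to 50 bases after each annotated start were taken from RefSeq (GRCh38.p14) for 7 of 7 genes, 18 windows in all. They were searched on both strands for ACGTG and for a variant that starts with G in place of A, which are the core letters that HIF is known to bind. They were also searched for the palindrome CACGTG, which holds the first motif on both strands. Of all 35116 windows in the RefSeq table, 21.4% held the first motif, 36.5% the variant and 7.26% the palindrome. Of the 18 windows, 5 held the first motif, 6 the variant and 4 the palindrome. The palindrome windows include 2 of DNMT3A that overlap and hold the same site. The 250 bases before 4 starts are shown because these genes include the 3 that passed both thresholds and TET2, whose estimates had the opposite sign. The palindrome is in capitals, and each sequence reads 5′ to 3′ on the gene's own strand, at chr2:73984660-73984909 (TET3, plus strand), chr4:105145625-105145874 (TET2, plus strand), chr2:25252316-25252565 (DNMT3A, the fourth of 6 listed windows, minus strand) and chr20:32779602-32779851 (DNMT3B, plus strand).
TET3: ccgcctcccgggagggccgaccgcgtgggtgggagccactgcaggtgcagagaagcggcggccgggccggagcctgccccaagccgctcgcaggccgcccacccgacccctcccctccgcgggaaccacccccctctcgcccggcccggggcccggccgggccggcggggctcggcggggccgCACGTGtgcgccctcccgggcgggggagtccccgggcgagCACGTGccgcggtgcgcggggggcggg
TET2: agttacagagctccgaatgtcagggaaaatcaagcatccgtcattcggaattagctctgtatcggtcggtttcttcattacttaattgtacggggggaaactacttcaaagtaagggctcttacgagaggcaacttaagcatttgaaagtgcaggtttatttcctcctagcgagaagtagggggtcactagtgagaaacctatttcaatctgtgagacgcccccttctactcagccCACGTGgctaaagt
DNMT3A: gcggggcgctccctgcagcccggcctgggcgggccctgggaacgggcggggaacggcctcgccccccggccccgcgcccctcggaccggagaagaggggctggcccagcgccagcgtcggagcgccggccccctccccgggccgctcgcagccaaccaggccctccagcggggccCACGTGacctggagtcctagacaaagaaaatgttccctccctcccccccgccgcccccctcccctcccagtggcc
DNMT3B: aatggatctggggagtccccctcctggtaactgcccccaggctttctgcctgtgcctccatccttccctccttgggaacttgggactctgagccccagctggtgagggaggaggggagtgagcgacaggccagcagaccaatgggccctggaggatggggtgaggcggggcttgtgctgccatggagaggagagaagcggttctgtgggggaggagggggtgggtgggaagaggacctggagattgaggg
The TET3 window held the palindrome at 2 places, with first bases 67 and 27 bases before the start, and the TET2 window held it once, 14 bases before the start. The DNMT3A window held it once, 75 bases before the start of a transcript that begins inside the gene. No window of DNMT3B, DNMT1, UHRF1 or TET1 held the first motif. The variant was in 1 of 1 windows of DNMT1, 3 of 3 of UHRF1, 1 of 3 of TET1 and 1 of 2 of TET3. It was in 0 windows of DNMT3A, DNMT3B and TET2. The DNMT3B window, the only 1 listed, also lies inside the gene as GENCODE version 29 draws it. The windows of DNMT1 and UHRF1 lie inside their genes too, and the TET3 window shown lies wholly before that gene in the same annotation. CpG dinucleotides numbered 45 and 33 in the 300-base windows of TET3, 13 and 35 in those of TET2 and 3 in that of DNMT3B, against a median of 14 over all windows. The second TET3 window held none of the motifs, and the second TET2 window held the first motif without the palindrome. The counts do not say which start was used, and a match describes letters only.

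At 1% O2 the de novo methyltransferase transcripts and TET3 fell to between 0.474 and 0.484 of their normoxic level, DNMT1 and UHRF1 were lower by less than the fold threshold, TET2 was higher by less than that threshold, and a difference of TET1 was not resolved. Of the 7 genes, 3 fell and 0 rose. Among all genes tested, 20.3% fell and 19.5% rose. By the FDR alone, 5 genes were lower and 1 was higher, against 25.6% and 27.9% of all genes. The median log2 fold change of the 7 genes was -0.56, beside 0.000997 for all genes tested. With 32-134D at 1% O2, the same 3 genes (DNMT3A, DNMT3B and TET3) rose against vehicle at 1% O2 and 0 fell. Of all genes, 16.2% rose and 13.7% fell in that comparison. By the FDR alone, 4 of the 7 were higher, against 21.9% of all genes. The 2 comparisons share the libraries of vehicle at 1% O2, so opposite signs in them are not independent.

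**Figure D1:**
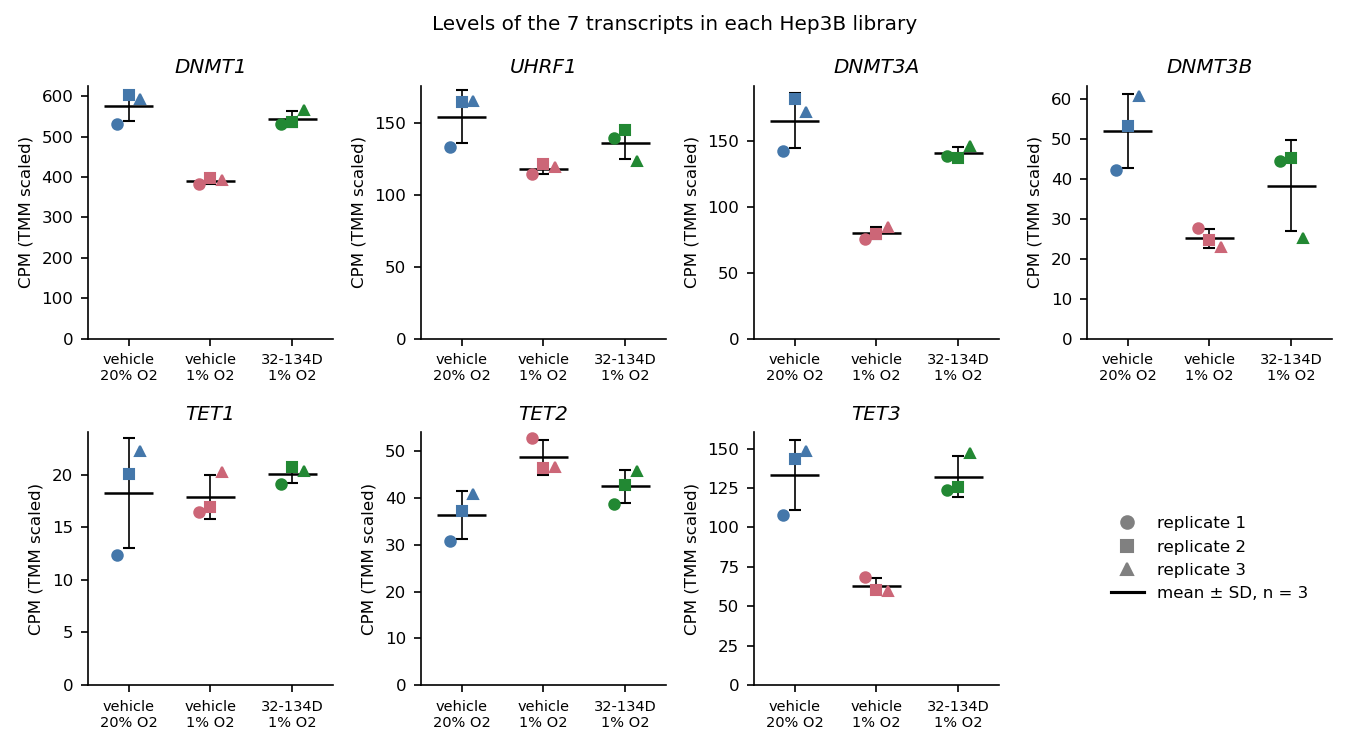
Levels of the 7 transcripts in CPM (vertical axes, each from 0) in the 9 libraries, grouped along the horizontal axis, with symbols for replicates and black bars for the mean ± SD of 3 libraries. TET3, DNMT3A and DNMT1 of vehicle at 1% O2 lie below all libraries of both other groups, TET2 of vehicle at 1% O2 lies above them, and 1 library of 32-134D at 25.2 CPM lies within the hypoxic range of DNMT3B.

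TET3, the TET enzyme known for oxidizing the paternal genome after fertilization, had the largest estimates, though its intervals overlapped those of DNMT3A and DNMT3B. Its level was 107.7, 143.2 and 148.5 CPM in the 3 libraries of vehicle at 20% O2, 68.76, 60.39 and 59.8 CPM in vehicle at 1% O2, and 123.8, 125.3 and 147.3 CPM with 32-134D at 1% O2. The hypoxic libraries without compound lay below all 6 others, and the compound libraries lay inside the normoxic range. TET3 fell at 1% O2 by 1.08 on the log2 scale (SE 0.114, 95% CI -1.32 to -0.83, FDR 1.36e-06 with edgeR). It rose by 1.07 with 32-134D (SE 0.113, 95% CI 0.82 to 1.31, FDR 2.41e-06). Against normoxic vehicle the compound libraries differed by -0.01 (95% CI -0.25 to 0.23, FDR 0.973). Without replicate 1 of normoxic vehicle the fall was -1.27, and without replicate 3 of 32-134D the rise was 0.98.

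TET2, an enzyme often mutated in blood cancers, had estimates of the opposite sign. Its level was 30.84, 37.21 and 40.97 CPM in normoxic vehicle, 52.96, 46.44 and 46.77 CPM in hypoxic vehicle and 38.8, 42.89 and 45.87 CPM with 32-134D. The hypoxic vehicle libraries lay above all others, narrowly so for the compound libraries. The log2 difference at 1% O2 was 0.42 (SE 0.107, 95% CI 0.19 to 0.65, FDR 0.00394 with edgeR), which is under the fold threshold. With 32-134D it was -0.20 (95% CI -0.42 to 0.02, FDR 0.132), and against normoxic vehicle 0.22 (FDR 0.227). The difference with the compound was -0.08 without replicate 1 of 32-134D, -0.26 (FDR 0.0238) without replicate 3 and -0.01 with total library size. The hypoxic difference of TET2 no longer passed the FDR with total library size as scaling (0.21, FDR 0.125), with upper-quartile scaling (0.23, FDR 0.0873) or without replicate 1 of normoxic vehicle (0.26, FDR 0.0505).

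TET1, the founding member of the family, had the lowest level of the 7 per length. It was at 12.33, 20.1 and 22.26 CPM in normoxic vehicle, 16.49, 16.93 and 20.29 CPM in hypoxic vehicle and 19.12, 20.7 and 20.31 CPM with 32-134D. The 3 groups overlapped, and the widest spread, with a CV of 28.6%, was in normoxic vehicle. The log2 difference was -0.03 at 1% O2 (95% CI -0.39 to 0.33, FDR 0.887 with edgeR) and 0.16 with 32-134D (95% CI -0.18 to 0.51, FDR 0.44). The first interval reaches a decrease of 0.39 on the log2 scale, and without replicate 1 of normoxic vehicle the value was -0.31 (FDR 0.047), so a small decrease of TET1 is not resolved by these libraries.

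The makeup of the TET transcripts differed between groups. Divided by total exon length, the TET3 level was 4.69, 5.17 and 4.87 times that of TET2 in the 3 normoxic vehicle libraries, 1.74, 1.75 and 1.72 times in hypoxic vehicle and 4.28, 3.92 and 4.31 times with 32-134D. The ratio thus fell in a narrow band in each group, and the 3 bands did not overlap. Hypoxic vehicle lay far below both others, and 32-134D lay below normoxic vehicle. With the length of the longest transcript the group means were 3.26, 1.15 and 2.77. TET3 made up 72.4% ± 1.03 (SD, n = 3) of the summed TET level per kilobase in normoxic vehicle, 51.2% ± 1.85 in hypoxic vehicle and 69.4% ± 1.43 with the compound. The share of TET2 was 14.8%, 29.5% and 16.7% in the same order. With the length of the longest transcript instead, the TET3 share was 67.9%, 45.1% and 64.6%. With 3 libraries against 3, an exact two-sided permutation test of such a ratio cannot go below p = 0.1, and these ratios are given without a test.

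**Figure D2:**
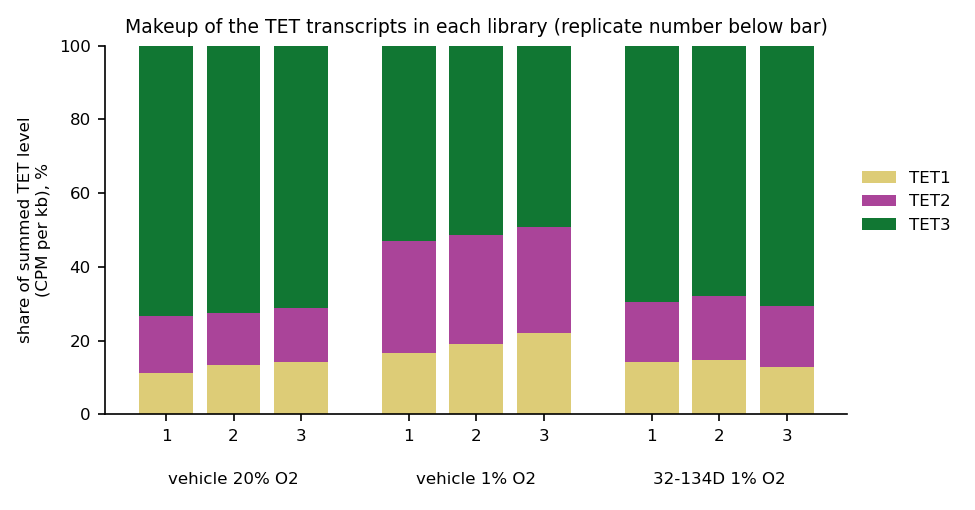
Share of TET1, TET2 and TET3 in the summed TET level (CPM per kilobase of exon length, vertical axis in %) in each of the 9 libraries, 1 bar per library. TET3 holds 71.2% to 73.3% of the bar in normoxic vehicle, 49.2% to 52.9% in hypoxic vehicle and 67.9% to 70.7% with 32-134D.

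DNMT3A, 1 of the de novo methyltransferases, was at 142.4, 182.3 and 172.3 CPM in normoxic vehicle, 75.81, 79.39 and 85 CPM in hypoxic vehicle and 138.9, 137.3 and 146.5 CPM with 32-134D. Hypoxic vehicle lay below all other libraries, while the compound group overlapped the lower end of normoxic vehicle. The transcript fell at 1% O2 by 1.05 on the log2 scale (SE 0.089, 95% CI -1.24 to -0.86, FDR 1.39e-07 with edgeR). It rose by 0.82 with 32-134D (SE 0.088, 95% CI 0.63 to 1.00, FDR 2.9e-06). The difference that was left against normoxic vehicle was -0.23 (95% CI -0.42 to -0.04, FDR 0.117), which became -0.33 (FDR 0.0139) without replicate 1 of normoxic vehicle, still under the fold threshold.

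DNMT3B, the other de novo enzyme, is known for high levels in embryonic cells and in many tumors. It was at 42.24, 53.39 and 60.74 CPM in normoxic vehicle and at 27.62, 24.75 and 23.06 CPM in hypoxic vehicle, with no overlap. With 32-134D it was at 44.61, 45.35 and 25.2 CPM, so that 2 libraries lay in the normoxic range and 1 in the hypoxic range. DNMT3B fell at 1% O2 by 1.05 on the log2 scale (SE 0.186, 95% CI -1.45 to -0.66, FDR 0.000198 with edgeR). The rise with 32-134D was 0.61 (SE 0.182, 95% CI 0.22 to 1.00, FDR 0.0119), close to the fold threshold. It was 0.84 (FDR 8.32e-08) without replicate 3 of 32-134D, 0.56 (FDR 0.0303) without replicate 1 and 0.48 (FDR 0.0527) without replicate 2, and in the last 2 cases it was no longer past both thresholds. The ratio of DNMT3A to DNMT3B per kilobase was 1.24 ± 0.124 in normoxic vehicle, 1.24 ± 0.182 in hypoxic vehicle and 1.53 ± 0.611 with 32-134D (SD, n = 3).

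DNMT1, which copies methylation at replication, was the most abundant of the 7. It was at 531.9, 602 and 592.5 CPM in normoxic vehicle, 382.5, 396.5 and 391.5 CPM in hypoxic vehicle and 530.2, 534.8 and 565.6 CPM with 32-134D. Hypoxic vehicle lay below all 6 other libraries, which overlapped each other. The log2 difference at 1% O2 was -0.56 (SE 0.069, 95% CI -0.71 to -0.41, FDR 6.39e-06 with edgeR), a ratio of 0.678 that just missed the fold threshold. Under 8 alternative settings it passed both thresholds, with values from -0.77 with total library size to -0.61 with DESeq2. With length and GC trends removed it was -0.26 (FDR 0.0015). With 32-134D the log2 difference was 0.48 (SE 0.069, FDR 4.36e-05), also under the fold threshold. It passed both thresholds with total library size (0.67, FDR 1.42e-06) and with upper-quartile scaling (0.60, FDR 7.49e-06). With length and GC trends removed it was 0.255 (FDR 0.00214). Against normoxic vehicle the difference was -0.08 (95% CI -0.23 to 0.07, FDR 0.517).

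UHRF1, the cofactor of DNMT1, was at 132.8, 164.6 and 164.9 CPM in normoxic vehicle, 114.3, 121.1 and 118.9 CPM in hypoxic vehicle and 139.3, 144.8 and 123.1 CPM with 32-134D. Hypoxic vehicle lay below the other groups, narrowly so for replicate 3 of 32-134D. The log2 difference was -0.38 at 1% O2 (95% CI -0.58 to -0.19, FDR 0.00226 with edgeR), 0.20 with 32-134D (95% CI 0.01 to 0.39, FDR 0.0799) and -0.18 against normoxic vehicle (FDR 0.237). Without replicate 1 of normoxic vehicle the hypoxic difference was -0.54, and without replicate 3 of 32-134D that of the compound was 0.27 (FDR 0.00581). The difference with 32-134D also passed the FDR with DESeq2 (0.26, FDR 0.0253), with RLE scaling (0.26, FDR 0.0279), with upper-quartile scaling (0.32, FDR 0.00804) and with total library size (0.39, FDR 0.00193), each under the fold threshold. The ratio of DNMT1 to UHRF1 per kilobase was 1.97 ± 0.117 in normoxic vehicle, 1.74 ± 0.0193 in hypoxic vehicle and 2.12 ± 0.259 with 32-134D (SD, n = 3), or 2.99, 2.63 and 3.21 with the length of the longest transcript.

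**Figure D3:**
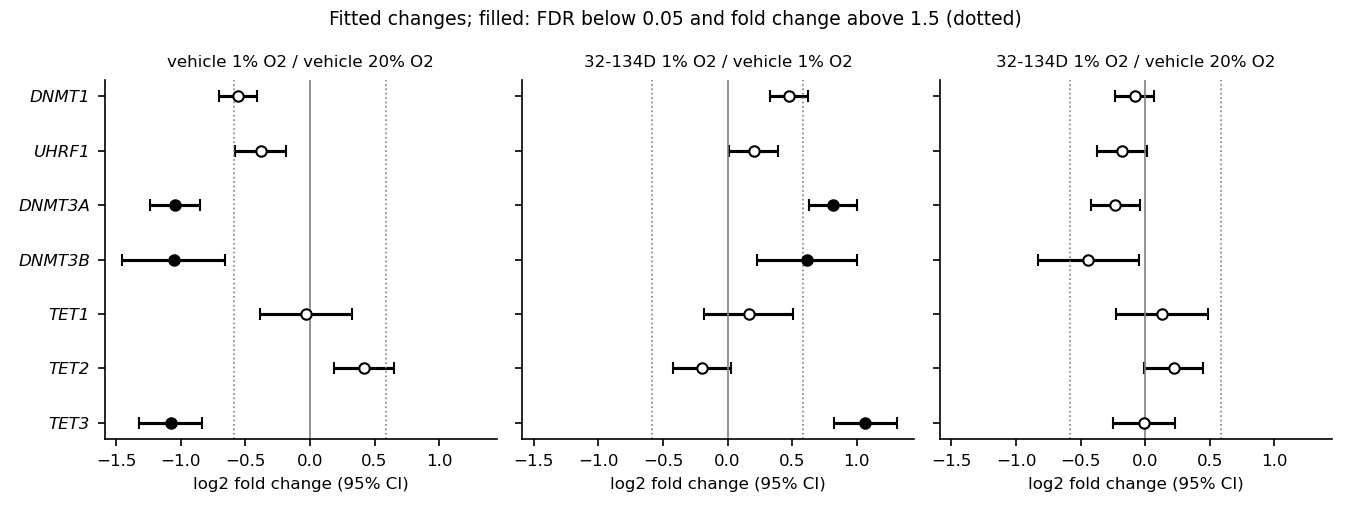
Log2 fold changes of the 7 genes with 95% confidence intervals (horizontal axis) in the 3 comparisons, 1 panel each, filled where the FDR was below 0.05 and the fold change above 1.5 (dotted lines). DNMT3A, DNMT3B and TET3 are filled in the first panel on the lower side and in the second on the higher side, and no gene is filled in the third.

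Against normoxic vehicle, the cells with 32-134D at 1% O2 showed 0 of the 7 transcripts past the FDR with edgeR or with DESeq2. Without both libraries that stood apart, DNMT1 (FDR 0.035), UHRF1 (0.0121), DNMT3A (7.45e-05), DNMT3B (0.00132) and TET3 (0.0145) passed the FDR with edgeR as lower, at -0.16 to -0.36 on the log2 scale, all under the fold threshold. DNMT3B also passed the FDR without the filter on low counts (0.000612), and DNMT3A with upper-quartile scaling (0.0435). Without replicate 1 of normoxic vehicle alone, DNMT3A (FDR 0.0139) and UHRF1 (0.0445) passed as lower. So did DNMT3A without replicate 3 of 32-134D alone (0.04). In the fit of all libraries at an unadjusted p below 0.05 there were 2, DNMT3A and DNMT3B, both lower. In that comparison 3% of all genes rose and 0.516% fell, a small share. The 10 HIF target genes differed from this, since 9 of them rose and 0 fell, with a median log2 fold change of 1. The intervals left room for a lower level of DNMT3B down to -0.83 on the log2 scale (estimate -0.44, FDR 0.151), and those of DNMT1, UHRF1, TET1, TET2 and TET3 spanned 0.

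Per kilobase of exon length, which allows levels to be set between genes, DNMT1 led in normoxic vehicle with 58.8 CPM, followed by UHRF1 with 29.9, DNMT3A with 13.8, DNMT3B with 11.3, TET3 with 10.9, TET2 with 2.21 and TET1 with 1.96 CPM per kilobase. DNMT3A and DNMT3B overlapped over the libraries, as did DNMT3B and TET3, and TET2 and TET1. In hypoxic vehicle the order was the same, with 39.8, 22.9, 6.66, 5.43, 5.13, 2.96 and 1.93 CPM per kilobase. There DNMT3B and TET3 overlapped, whereas the ranges of TET2 and TET1 did not. With 32-134D, TET3 at 10.8 CPM per kilobase stood above DNMT3B at 8.29 without overlap, and DNMT3A at 11.7 overlapped TET3. In GENCODE version 29, DNMT1 shares exon sequence on its strand with S1PR2, which had 6612 counts over the 9 libraries beside 111841 for DNMT1, and reads in the shared part could be assigned to neither or either. The other genes annotated within the 7 had at most 15 counts each over all libraries.

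The genes lie at chr19:10133345-10231286 (DNMT1, ENSG00000130816, minus strand), chr19:4903080-4962154 (UHRF1, ENSG00000276043, plus strand), chr2:25227855-25342590 (DNMT3A, ENSG00000119772, minus strand), chr20:32762385-32809356 (DNMT3B, ENSG00000088305, plus strand), chr10:68560656-68694482 (TET1, ENSG00000138336, plus strand), chr4:105145875-105279816 (TET2, ENSG00000168769, plus strand) and chr2:73986404-74108176 (TET3, ENSG00000187605, plus strand) of GRCh38. Their exons add up to 4630 bases (DNMT3B) to 16474 bases (TET2). Fold changes of all genes varied with exon length and GC content. Among protein-coding genes with a mean of at least 1 CPM, the median log2 fold change at 1% O2 went from 0.33 for exon lengths up to 2000 bases to -0.61 above 16000 bases, and with 32-134D from -0.34 to 0.52. In the class of TET3 and DNMT3A (8000 to 16000 bases, GC from 50% to 55%), the median of 314 genes was -0.31 at 1% O2, with 33.4% of them fallen, and 0.21 with the compound, with 29.6% risen. TET3 and DNMT3A lay beyond those medians in both comparisons, and below the lower quartile of -0.85 at 1% O2. DNMT1 lay near its class (8000 to 16000 bases, GC above 55%), whose medians were -0.59 and 0.43, with 51% fallen at 1% O2. DNMT3B is short (class of 4000 to 8000 bases, median 0.06 at 1% O2) and lay far from its class. TET2, in the longest class with GC up to 45%, was on the opposite side from its class median of -0.31. Its 16474 bases are just above the class bound of 16000, and its longest transcript has 10166 bases. In the class of 8000 to 16000 bases with GC up to 45%, the median at 1% O2 was -0.02 and the upper quartile 0.47.

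With trends over length and GC content removed, TET3 still fell (-0.70) and rose (0.75), and DNMT3B still fell (-1.13) and rose (0.72). DNMT3A still fell (-0.64, FDR 2.98e-06) but its difference with 32-134D was then 0.49 (FDR 5.56e-05), under the fold threshold. DNMT1 was at -0.26 and 0.26. TET2 then passed both thresholds, as higher at 1% O2 (0.79, FDR 5.54e-07) and lower with the compound (-0.59, FDR 1.16e-05). The trend over length used total exon length only, not that of the longest transcript. The part of length and GC content in these changes was not tested otherwise. Scaling bore on sizes too, since with total library size the median of all genes was at -0.21 at 1% O2 and 0.17 with 32-134D, and the share of rises among all calls went from 49% to 34.5% and from 54.2% to 72%.

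**Figure D4:**
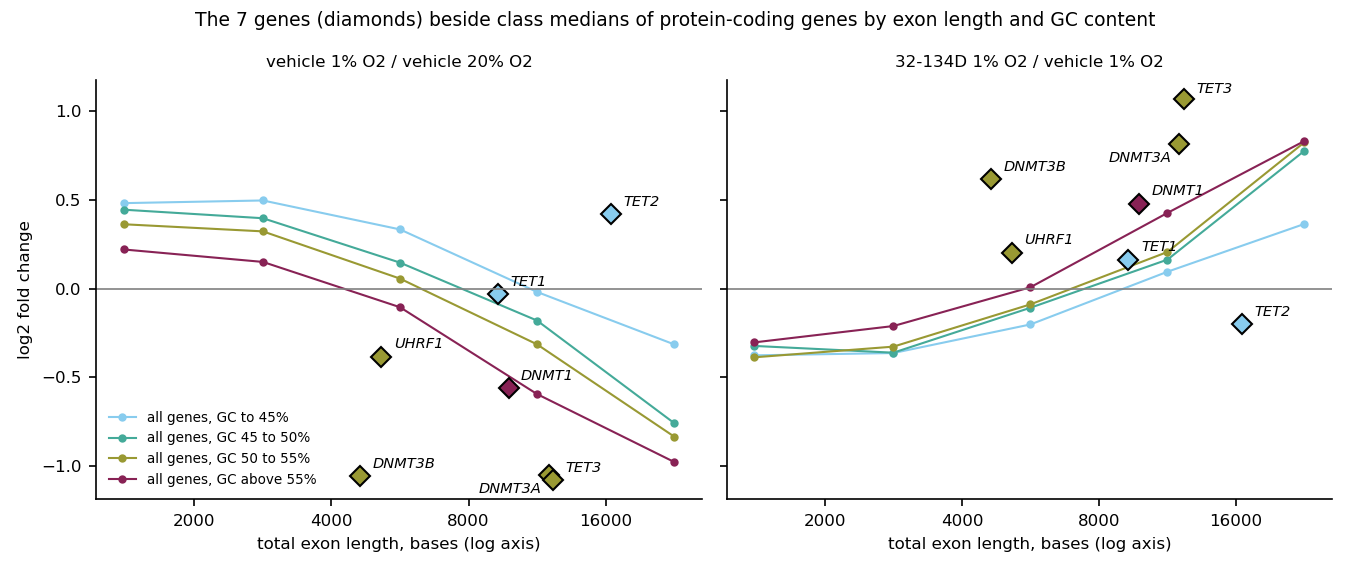
Log2 fold change (vertical axis) of the 7 genes (diamonds, colored by their GC class) over total exon length (log axis), with lines for the medians of protein-coding genes in classes of exon length and GC content, drawn at the class centers. DNMT3B, DNMT3A and TET3 lie below the line of their class (GC from 50% to 55%) at 1% O2 and above it with 32-134D, and TET2 lies on the other side of the line of its class.

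Transcripts of proteins that work with the methyltransferases were set beside them. Of 19 tested partners, 6 fell and 1 rose at 1% O2, and 4 rose and 0 fell with 32-134D, while the list's median log2 fold changes of 0.15 and -0.01 were not on the side of most of its calls. The medians of all genes tested were 0.000997 and -0.0116. At 1% O2, 20.3% of all genes fell and 19.5% rose, and with 32-134D 16.2% rose and 13.7% fell. HELLS, a chromatin remodeler needed for methylation of repeats, fell from 48.8 ± 3.62 to 18.4 ± 2.01 CPM (log2 fold change -1.41, FDR 2.23e-08) and was at 40.7 ± 2.98 CPM with the compound (1.15, FDR 3.29e-07). Its activator CDCA7 fell by 1.11 on the log2 scale. CBX5, which encodes the heterochromatin protein HP1 alpha, fell from 330 ± 36.1 to 135 ± 5.12 CPM (-1.29) and rose by 1.17 with 32-134D to 304 ± 17.8 CPM. NSD1, whose histone mark guides DNMT3A, rose by 0.93 with the compound. The 1 partner that rose at 1% O2 was UHRF2, the paralog of UHRF1, at 0.66. With total library size as scaling UHRF2 no longer passed. Of 8 methyl-CpG readers, 2 rose at 1% O2 (ZBTB38, 0.84, and the repair glycosylase MBD4, 0.64) and 1 fell (MBD3, -0.60), and with 32-134D none passed both thresholds in either direction, while 4 passed the FDR alone. With total library size, 1 reader rose and 2 fell at 1% O2.

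Of 17 TET partners and base excision repair genes, which finish demethylation, 6 rose and 2 fell at 1% O2, and 1 rose and 3 fell with 32-134D. Of all genes, 19.5% rose and 20.3% fell in the first comparison, and 16.2% rose and 13.7% fell in the second. The list's median log2 fold changes were 0.38 and -0.11. The GADD45 genes, stress-response genes linked to demethylation, led the list. GADD45A went from 17.0 ± 2.30 CPM to 184 ± 31.8 CPM (log2 fold change 3.44, FDR 4.78e-11) and to 52.8 ± 1.23 CPM with the compound (-1.80). GADD45B rose by 2.39 and fell by 1.67. GADD45G rose from 0.327 ± 0.245 to 13.1 ± 2.03 CPM (4.89) and was at 3.06 ± 0.557 CPM with the compound (-2.09). With total library size, 3 rose and 3 fell at 1% O2.

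Among genes of the S-adenosylmethionine cycle, which supplies the methyl groups, calls were on the side of the methyltransferases more often than not. Of 19 tested, 9 fell and 3 rose at 1% O2 (median -0.54), and 6 rose and 2 fell with 32-134D (median 0.28). The shares over all genes were 20.3% fallen and 19.5% risen at 1% O2, and 16.2% risen and 13.7% fallen with 32-134D. MAT2A, the S-adenosylmethionine synthetase of dividing cells, fell from 283 ± 5.38 to 124 ± 4.98 CPM (log2 fold change -1.19, FDR 8.89e-07) and was at 280 ± 66.2 CPM with the compound (1.18, FDR 1.72e-06). The methionine synthase gene MTR rose by 0.85 with 32-134D. SHMT2, the mitochondrial serine hydroxymethyltransferase, rose at 1% O2 from 270 ± 6.44 to 649 ± 22.9 CPM (1.27).

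Enzymes that make or use the TET substrate 2-oxoglutarate, or the competing succinate and 2-hydroxyglutarate, gave 3 rises and 4 falls among 17 genes at 1% O2, with a median of 0.09, where 19.5% of all genes rose and 20.3% fell. With total library size, or with at least 10 counts in every library, 1 rose. With 32-134D there were 2 rises and 1 fall, where 16.2% of all genes rose and 13.7% fell. D2HGDH, which removes D-2-hydroxyglutarate, fell from 31.1 ± 2.35 to 8.07 ± 0.905 CPM (log2 fold change -1.95, FDR 1.86e-08) and rose by 1.41 with the compound. OGDH, which consumes 2-oxoglutarate, fell by 0.97 and rose by 0.73. SDHD, a subunit of succinate dehydrogenase, rose by 0.93 at 1% O2, and the mitochondrial isocitrate dehydrogenase IDH2 fell by 0.83 with 32-134D.

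Of 29 S phase genes, 8 rose and 3 fell at 1% O2 (median 0.41), and 1 rose and 5 fell with 32-134D (median -0.29). Beside these counts, 19.5% of all genes rose and 20.3% fell at 1% O2, and 16.2% rose and 13.7% fell with 32-134D. CDT1, a replication licensing factor, went from 72.1 ± 0.272 to 230 ± 12.7 CPM (log2 fold change 1.67, FDR 1.43e-10) and fell by 1.04 with the compound. GINS3 rose by 1.47 and fell by 0.90, CDC6 rose by 1.23, and GINS2 fell by 0.77 with the compound. With total library size, 5 rose and 4 fell at 1% O2, and 3 rose and 2 fell with 32-134D, so that the split in the second comparison turned. Of 20 germline genes whose promoters are known to be methylated in somatic cells, 3 had enough counts to be tested. HORMAD2 fell at 1% O2 (-2.20), with at most 35 counts in a library, and was at 1.78 with 32-134D (FDR 0.000425, given although its level there was under 1 CPM), while PIWIL2 rose (0.92, FDR 0.00107) and fell with 32-134D (-1.09).

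**Figure D5:**
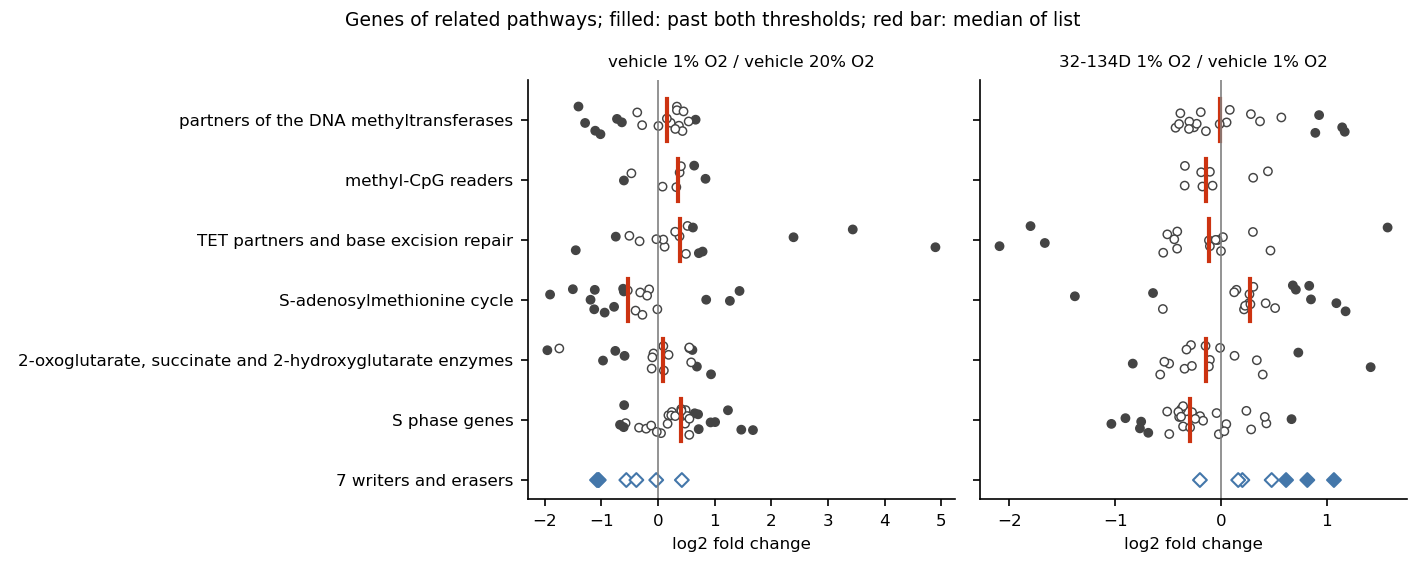
Log2 fold changes (horizontal axis) of the tested genes of 6 related lists and of the 7 genes (diamonds, bottom row) at 1% O2 (left) and with 32-134D (right), filled where past both thresholds, with red bars for list medians. The medians are on the lower side at 1% O2 for the S-adenosylmethionine cycle (-0.54) and on the higher side for S phase genes (0.41).

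The genes with the most similar pattern were taken by Pearson's r of log2 CPM over the 9 libraries, among 13911 genes with a mean of at least 1 CPM. The libraries share 3 groups, so that any gene with the same group means scores high, and r is a description. TET3 was followed most closely by MYCBP2, KMT2D and POLR1A, with r = 0.998 for POLR1A. DNMT1 was followed by MED24 (0.998), NID1 (0.997) and PIEZO1 (0.996), DNMT3A by GAA, ABCA2 and PI4KA, DNMT3B by SYNM, TNFAIP2 and FAM111A, and UHRF1 by CIC, ECE1 and HDAC6. TET2 was followed by SYNRG (0.989), ZC3H18 and ZNF507, and TET1 by NCOA6 (0.942), COG1 and SIK3. The lower value of the best match for TET1 goes with its overlapping groups.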

How the data were processed

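Unnormalized gene counts of 9 Hep3B RNA-seq libraries were deposited by the authors, made, per the study's methods, with FastQC, Bbduk, STAR and featureCounts on GRCh38. Tool versions and the strand setting are not given in the sources used here. All 9 columns were matched to samples by their labels. Replicate pairs differed beyond counting error.

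Genes whose 9 counts added up to 10 or more entered edgeR 4.0.16 in R 4.3.3 (TMM scaling, quasi-likelihood test, 1 fit of 9 libraries), and FDR is the Benjamini-Hochberg adjusted p. The procedure was tested on simulated counts. Positions, exon lengths and GC content come from GENCODE version 29, and 98.2% of tested genes matched it. The counts use a later Ensembl release. Pearson's r used log2 CPM with a prior count of 2. The 7 genes and the gene lists were chosen with earlier results of these data known, so their counts are descriptions. Named genes are the 7, up to 3 called genes of each list with the largest change and at least 1 CPM, the 3 most similar genes per member and overlapping genes. UHRF2 was named after its values were seen. For 1 gene that this rule names, no result is given. Intervals are at 95%. Total counts ran from 6013980 to 40549699, and TET1 had the lowest counts of the 7 genes.

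Alternatives were DESeq2 1.42.0, 3 scalings, filters, fold thresholds, fits of 2 groups, a replicate block, thinning, removal of length and GC trends, and leaving out each library.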

Additional observations from a re-analysis of the deposited data

How the results depend on the processing

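Of 420 values of the 7 log2 fold changes under alternative settings, 382 kept their direction and their side of the thresholds, 19 came to pass them, 6 no longer passed and 13 changed sign. The sign changes were in values near 0. For TET3 with 32-134D against normoxic vehicle they were 0.00876 without the filter on low counts, 0.0487 with length and GC trends removed and 0.04995 with trends removed and the block. For TET1 in that comparison the value was -0.11 without both replicate 1 of normoxic vehicle and replicate 3 of 32-134D, an alternative chosen after seeing the data. Leaving out 1 library, or those 2 together, gave -0.32 to 0.18 for TET1 at 1% O2, and -0.11 to 0.35 for TET1 and -0.22 to 0.078 for TET3 in 32-134D against normoxic vehicle. The count of fallen genes at 1% O2 was 5 without a fold threshold and 5 with total library size, and that of risen genes was 1 without a fold threshold. With RLE or upper-quartile scaling 4 genes fell, DNMT1 among them. DNMT1 passed both thresholds under 8 alternative settings, which include these 2 and DESeq2. The count of risen genes with 32-134D was 4 without a fold threshold, with total library size or with upper-quartile scaling, and 1 with a threshold of 2. DNMT3A did not count as risen with length and GC trends removed, nor DNMT3B without replicate 1 or replicate 2 of 32-134D. With length and GC trends removed, with or without the block, 1 gene (TET2) rose at 1% O2 and 1 (TET2) fell with 32-134D. The cause of these changes was not tested.

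The labels do not say whether libraries with the same replicate number belong together. Correlations of same-numbered deviations were between -0.144 and 0.062, and those of differently numbered ones between -0.146 and 0.163. With so few libraries a group, these values cannot decide the question. A replicate block changed no call of the 7 genes (DNMT3B with 32-134D 0.60, FDR 0.0167).

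Counts were lowest for TET1, with 128 in the shallowest case. The SE at 1% O2 was 0.186 for DNMT3B and 0.167 for TET1, and the part of depth in it was not tested. With 3 libraries a group, 1 library can decide a call near the fold threshold, as for DNMT3B with 32-134D (0.48 to 0.84).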
